A study of Mus musculus with 18 samples.

Results

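A set of 10 genes that sensory neurons switch on or raise after axon damage was followed in dorsal root ganglia of mice given myeloma cells in the femur. They were chosen by symbol: the transcription factors Atf3, Jun, Sox11 and Klf6, the stress gene Gadd45a, and the growth and cytoskeletal genes Sprr1a, Gap43, Stmn4, Tubb6 and Flrt3. They are 10 of the 48529 genes summed from the files, and all 10 were among the 15774 genes with enough reads to test. The study sequenced whole lumbar ganglia of 18 male C57BL/KaLwRijHsd mice, aged 5-7 weeks, 1 library per mouse. In the 9 MM mice, cells of 5TGM1-GFP, a mouse myeloma line carrying a fluorescent protein, were put into the femur. The 9 SHAM mice received vehicle by the same route, so both groups had the operation on the bone, and no group without surgery was analysed here. Ganglia of the operated side were taken on post-surgical day 24.

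A dorsal root ganglion holds the cell bodies of sensory neurons, wrapped by satellite glia and accompanied by Schwann cells, macrophages and vessels. When a peripheral axon is cut or crushed, a signal carried back along the axon reaches the nucleus, and kinases such as DLK and JNK bring Jun and Atf3 into action. These factors, with Sox11, Klf6 and others, turn on genes used to rebuild the growing tip. Atf3 is nearly silent in intact sensory neurons and is widely used as a marker of those with a damaged axon. In bulk ganglia, fewer responding cells and less RNA per responding cell cannot be told apart.

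Libraries held 19218249 to 21771206 estimated reads, of which 0.85 to 1.339% belonged to no annotated gene. Neuronal marker transcripts were abundant in all libraries, with a summed level of 10558 to 23403 CPM in MM and 16912 to 23179 CPM in SHAM. CPM are reads relative to the effective depth of a library, which the TMM method estimates. The transcript of the injected cells' immunoglobulin heavy chain, Ighg2b, was between 11.7 CPM in MM2 and 4374 CPM in MM9, and at most 16.4 CPM in SHAM. The libraries MM5, MM8 and MM9 held the most of it. MM4, MM8 and SHAM8 stood apart in the injury genes, and MM7 was low in several of them, so results that rest on MM4, MM8 or SHAM8 are given with and without them. Muscle markers summed to 19691 CPM in SHAM8 against at most 4124 CPM elsewhere.

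Tubb6 rose in MM, and the other 9 genes did not pass the test, which was edgeR's quasi-likelihood test with Benjamini-Hochberg adjustment over all genes at a threshold of 0.05. Among all genes, 433 rose (2.75%) and 38 fell (0.241%), 2.99% in either direction, and among the 10 genes 1 rose and 0 fell. At an unadjusted p under 0.05, 3 of the 10 were higher and 0 lower, where 13.9% of all genes were higher and 8.60% lower. DESeq2 also called 1 of the 10 as risen and 0 as fallen, and 5.99% of all genes as risen and 1.62% as fallen. All 10 fold changes were positive, with a median of 0.25 on the log2 scale, where 48.9% of all genes were positive and their median was -0.00. The group means hid how unevenly the genes were spread over the mice. For 8 of the 10 genes, MM4 and MM8 were the 2 highest of 18 libraries, and this held for 1.03% of all genes tested. These libraries were singled out after the values of the 10 genes had been seen, so that count is a description.

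**Figure D1:**
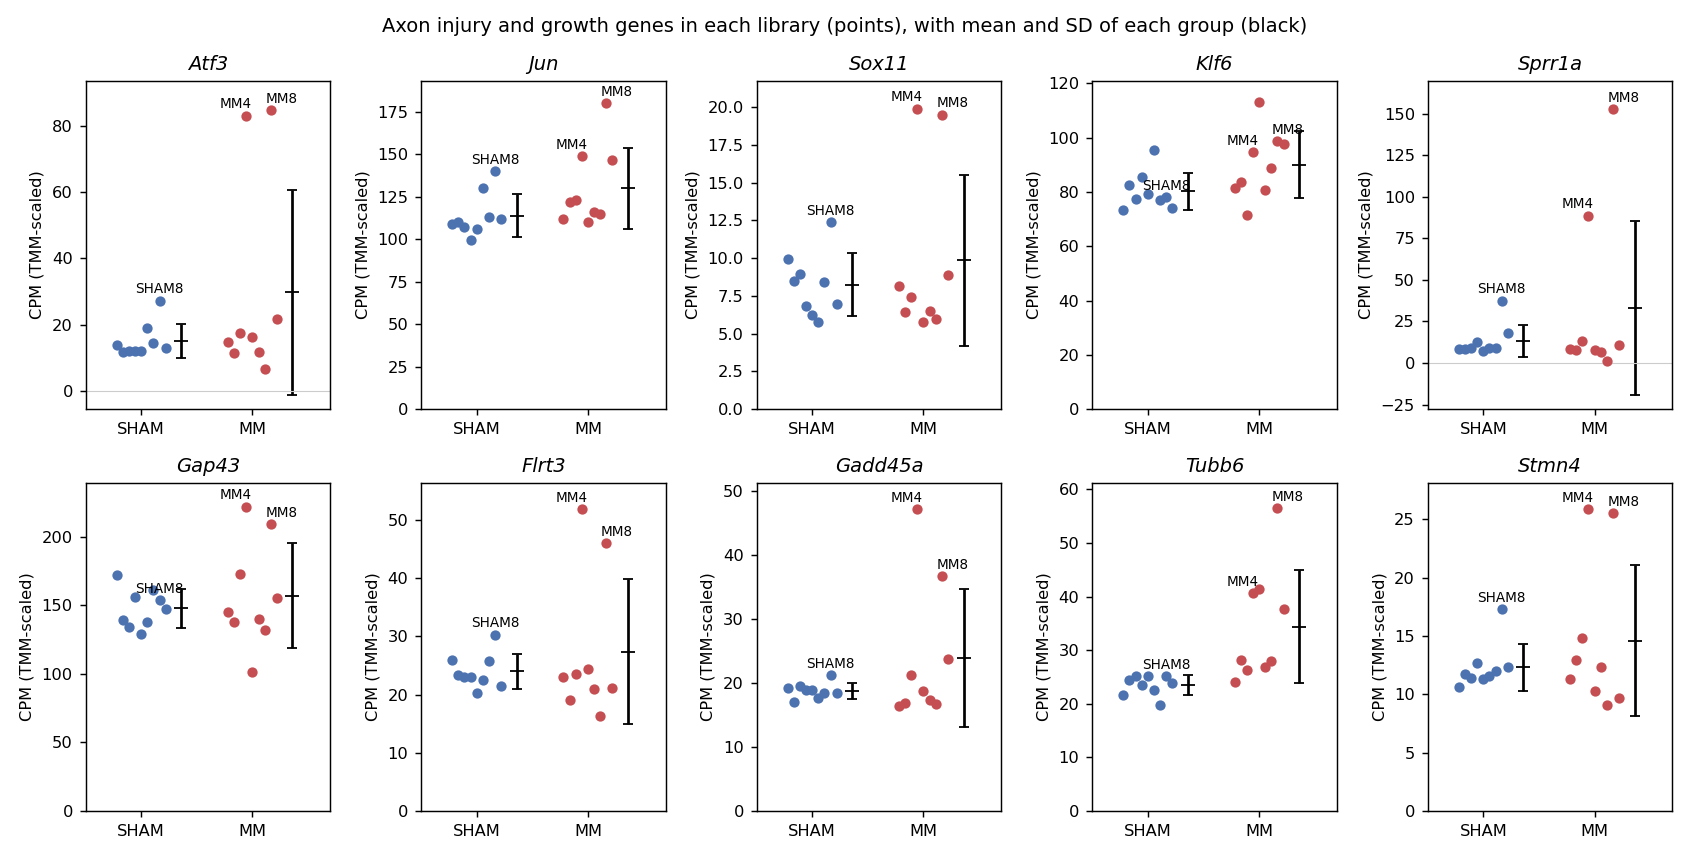
Level of each of the 10 genes in CPM (linear axis) in the 9 MM and 9 SHAM libraries, 1 point per mouse, with the mean and SD of each group in black. MM4 and MM8 sit above every other library for Atf3, Jun, Sox11, Sprr1a, Gap43, Flrt3, Gadd45a and Stmn4, while Klf6 and Tubb6 are also high in MM5 and MM9.

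Atf3 (ENSMUSG00000026628) encodes a stress-induced bZIP factor that pairs with Jun. Its level was 83.0 CPM in MM4 and 84.7 CPM in MM8, against 6.80 to 21.8 CPM in the other 7 MM mice. In SHAM it lay between 11.9 and 27.3 CPM, with a median of 13.1 CPM, and SHAM8 was the highest. Thus 2 MM mice were over 6 times the SHAM median (6.33-fold and 6.46-fold) and the others lay inside or below the range of SHAM. MM averaged 29.8 ± 30.9 CPM against 15.1 ± 5.11 CPM for SHAM (SD, n = 9 each). The log2 fold change was 0.98 ± 0.44 (SE) with an edgeR adjusted p of 0.200. Without MM4 and MM8 it was -0.07 ± 0.22, adjusted p = 0.870.

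Sprr1a (ENSMUSG00000050359) encodes a small proline-rich protein best known from the envelope of skin cells, which injured sensory neurons also make and which promotes axon outgrowth. Its level was 88.7 CPM in MM4 and 153 CPM in MM8, or 10.1-fold and 17.3-fold the SHAM median of 8.81 CPM. SHAM8 had 37.5 CPM, and the other 8 SHAM mice 7.17 to 18.1 CPM. MM7 stood at the other end with 1.20 CPM, from 25 reads, while the other 6 MM mice had 6.57 to 13.1 CPM. Sprr1a therefore had the widest spread relative to its mean of the 10 genes, in both groups. Its fold change was 1.32 ± 0.72 (edgeR adjusted p = 0.282), and without MM4 and MM8 it was -0.72 ± 0.42 (adjusted p = 0.342), both on the log2 scale. The epithelial marker list summed to 161 CPM in MM4, 172 CPM in MM8 and 160 CPM in SHAM8, against 162 to 242 CPM in the other libraries. Most of that sum was Cdh1, and 3 of the 8 listed genes had enough reads to test. Of the listed genes, the keratin genes Krt5 and Krt14 averaged 0.0111 and 0.0834 CPM over all libraries and Ivl 0.00271 CPM, and Sprr2d had no reads in any library. These were too low to test, so the 3 tested genes lay among Cdh1, Epcam and the keratin genes Krt1 and Krt10. The levels of Krt1 and Krt10 are not described here, and an epithelial part in the Sprr1a values was not tested.

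The sequences before these 2 start sites are printed because Atf3 and Sprr1a had the highest folds of the 10 genes in MM4 and MM8 and these windows hold motifs of the factors named here. Each is the 250 bases upstream of the RefSeq start on GRCm38.p6, 5′ to 3′ on the gene's minus strand, with motif matches in capitals: chr1:191183334-191183583 for Atf3 and chr3:92485882-92486131 for Sprr1a.
Atf3: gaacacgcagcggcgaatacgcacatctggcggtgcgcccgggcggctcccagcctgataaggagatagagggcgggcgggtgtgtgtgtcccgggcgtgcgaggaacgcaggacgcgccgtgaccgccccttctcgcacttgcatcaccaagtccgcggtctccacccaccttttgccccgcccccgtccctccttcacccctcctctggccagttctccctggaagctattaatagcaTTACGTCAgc
Sprr1a: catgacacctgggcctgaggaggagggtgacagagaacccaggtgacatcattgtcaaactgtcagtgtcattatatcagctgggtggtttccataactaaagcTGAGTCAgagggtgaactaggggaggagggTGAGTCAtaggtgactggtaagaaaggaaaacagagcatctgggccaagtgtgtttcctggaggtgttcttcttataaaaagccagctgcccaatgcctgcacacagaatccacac
The Atf3 match is TTACGTCA, a variant of the CRE to which ATF factors bind, beginning 10 bases before the start site. The Sprr1a matches are a pair of TGAGTCA sites, the AP-1 motif recognised by Jun-containing dimers, beginning 146 and 116 bases before the start. RefSeq promoters of 7 of the 10 genes were searched on both strands, and those of Gap43, Stmn4 and Tubb6 were not searched. A letter string is a description, not evidence of binding. The pattern searched for AP-1 was TGANTCA, in which N is any base, so it is looser than TGAGTCA. It was found in 6.75% of 32851 promoters and in 1 of the 7, Sprr1a. The variant TTACGTCA (TGACGTAA on the other strand) was found in 0.447% of promoters and in 1 of the 7, Atf3. The full CRE, TGACGTCA, was found in 1.55% of promoters and in 0 of the 7.

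Atf3 has a second annotated start 34.7 kb upstream (GENCODE M21, GRCm38). Salmon assigned the transcript from that start, ENSMUST00000195117, 584 of 1702 Atf3 reads in MM4 (34.3%, 95% Wilson interval 32.1 to 36.6) and 397 of 1731 in MM8 (22.9%, 21.0 to 25.0). In SHAM8 it took 167 of 514 reads (32.5%, 28.6 to 36.7) and in SHAM7 92 of 288 (31.9%, 26.8 to 37.5). MM7 had 0 of 142, with a Wilson upper limit of 2.63%, or 2.11% if the limit is set at 3 counts. The intervals cover counting error only, not the ambiguity of dividing reads between overlapping transcripts. The interval of MM4 overlapped those of SHAM8 and SHAM7, and MM8 lay inside the SHAM range of 8.44 to 32.5%, although both had more Atf3 in total.

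Jun (ENSMUSG00000052684), the AP-1 subunit that JNK phosphorylates, was expressed in every mouse and varied less. Its level was 149 CPM in MM4 and 180 CPM in MM8, followed by 147 CPM in MM9 and 140 CPM in SHAM8. The remaining MM mice had 110 to 123 CPM and the remaining SHAM mice 99.6 to 130 CPM, so the groups overlapped. On the log2 scale MM exceeded SHAM by 0.20 ± 0.09 (edgeR adjusted p = 0.224) and 0.08 ± 0.07 without MM4 and MM8.

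Sox11 (ENSMUSG00000063632), an HMG-box factor of immature and regenerating neurons, was the lowest of the 10 per length. It measured 19.9 CPM in MM4 and 19.5 CPM in MM8, 12.4 CPM in SHAM8, and 5.77 to 9.97 CPM in the other 15 mice. The log2 fold change over all mice was 0.26 ± 0.26 (edgeR adjusted p = 0.563), and it turned to -0.23 ± 0.15 without MM4 and MM8.

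Klf6 (ENSMUSG00000000078), a zinc-finger factor that promotes axon growth, followed another order. Its highest library was MM5 with 113 CPM, and MM8 (98.7 CPM), MM9 (97.8 CPM), SHAM6 (95.4 CPM) and MM4 (94.6 CPM) came next. SHAM had a median of 78.1 CPM and MM ranged down to 71.6 CPM. MM4 was only 1.21-fold the SHAM median. The difference between the groups was 0.16 ± 0.07 (edgeR adjusted p = 0.200) and 0.13 ± 0.08 without MM4 and MM8, as log2 fold changes.

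Gadd45a (ENSMUSG00000036390), a growth-arrest and DNA-damage gene induced in injured sensory neurons, was narrow in SHAM, at 17.0 to 21.3 CPM. MM4 had 47.2 CPM and MM8 36.7 CPM, followed by MM9 with 23.8 CPM, and the other 6 MM mice had 16.4 to 21.2 CPM. A log2 fold change of 0.34 ± 0.19 (edgeR adjusted p = 0.282) became -0.01 ± 0.08 without MM4 and MM8.

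Gap43 (ENSMUSG00000047261), the growth-cone phosphoprotein, was the most abundant of the 10 per length. It measured 222 CPM in MM4 and 209 CPM in MM8, 101 to 173 CPM in the other MM mice, and 129 to 172 CPM in SHAM. MM8 was 1.42-fold the SHAM median, and MM5 was the lowest of all. Its log2 fold change was 0.09 ± 0.12 (edgeR adjusted p = 0.668) and -0.07 ± 0.09 without MM4 and MM8.

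Flrt3 (ENSMUSG00000051379), a leucine-rich transmembrane protein that supports neurite outgrowth, stood at 51.9 CPM in MM4 and 46.0 CPM in MM8. SHAM8 had 30.3 CPM, and the other 15 mice 16.3 to 25.9 CPM. The log2 fold change was 0.19 ± 0.19 (edgeR adjusted p = 0.573), and -0.18 ± 0.09 without MM4 and MM8 (adjusted p = 0.298). Stmn4 (ENSMUSG00000022044), a stathmin-family protein that binds tubulin, had a like order, with 25.9 CPM in MM4, 25.5 CPM in MM8, 17.3 CPM in SHAM8 and 9.05 to 14.8 CPM in the rest. Its log2 fold change was 0.25 ± 0.20 (edgeR adjusted p = 0.461) and -0.10 ± 0.11 without MM4 and MM8.

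Tubb6 (ENSMUSG00000001473), a class V beta-tubulin, was the 1 gene of the 10 that rose. In SHAM it lay between 19.7 and 25.2 CPM with a median of 23.9 CPM. MM8 had 56.5 CPM, MM5 41.5, MM4 40.7 and MM9 37.6 CPM, and 4 further MM mice had 26.3 to 28.1 CPM. Thus 8 of 9 MM mice exceeded every SHAM mouse, and MM1, at 24.0 CPM, fell inside their range. MM averaged 34.4 ± 10.6 CPM against 23.5 ± 1.86 CPM for SHAM (SD, n = 9 each), with a log2 fold change of 0.55 ± 0.14 and an edgeR adjusted p of 0.0403. The call stood near the threshold: it was lost in 12 of 18 fits that left out 1 library, namely MM4, MM5, MM8, MM9 and every SHAM library but SHAM6, although the fold change stayed between 0.43 and 0.60. Without MM4 and MM8 it was 0.37 ± 0.10, adjusted p = 0.0885, and without MM5, MM8 and MM9 it was 0.30, adjusted p = 0.228.

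**Figure D2:**
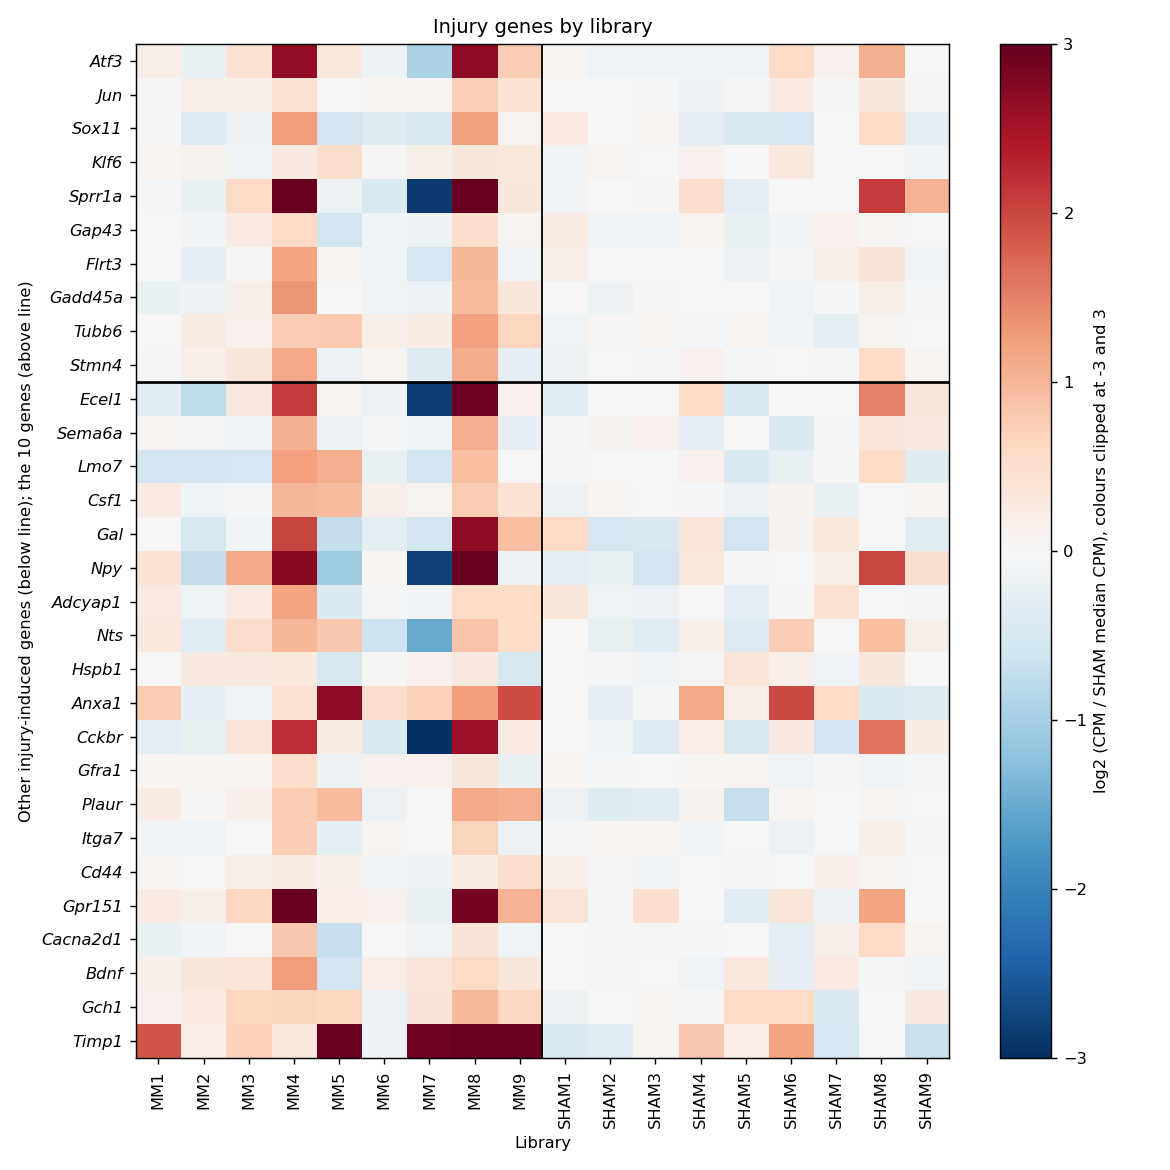
Log2 difference of each library from the SHAM median for the 10 genes and for the other injury-induced genes tested, with libraries in columns and genes in rows. MM4 and MM8 stand out across most rows, SHAM8 to a smaller degree in part of them, and MM7 is low for Sprr1a, Ecel1, Npy and Cckbr.

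Over the 10 genes, the median log2 difference from the SHAM median was 1.15 in MM4 and 1.06 in MM8. It was 0.37 in SHAM8, 0.33 in MM9, 0.16 in MM3 and -0.27 in MM7, and between -0.13 and 0.02 in the other 12 mice. Both MM4 and MM8 exceeded every SHAM mouse for 9 of the 10 genes, all but Klf6, where 7.68% of all genes tested did so. For 0 of the 10 genes did all MM libraries exceed all SHAM libraries, and 0.120% of all genes did. SHAM8 was the highest SHAM library for 7 of the 10 genes and for 17.9% of all genes. MM7 was the lowest MM library for 4 of the 10 and for 6.16% of all genes.

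Ighg2b ordered the libraries differently. Ighg2b was 390 CPM in MM4, 389 CPM in MM3 and 353 CPM in MM1, while Atf3 was 83.0, 17.6 and 14.7 CPM in them. MM9, with 4374 CPM of Ighg2b, had 21.8 CPM of Atf3, and MM8, with 2334 CPM, had 84.7 CPM. Macrophage markers summed to 188 CPM in MM4, 440 CPM in MM8 and 107 CPM in SHAM8, against 150 to 889 CPM over MM and 93.0 to 288 CPM over SHAM. Neuronal markers summed to 20967 CPM in MM4, 19346 CPM in MM8 and 20972 CPM in SHAM8, within the range of SHAM. MM5 had 10558 CPM, the lowest, and Klf6 and Tubb6 were high there. Of 15 macrophage markers 9 rose, of 10 plasma-cell and myeloma markers 8 rose, and of 12 cell-cycle genes 11 rose. Without MM4 and MM8 the macrophage and cell-cycle counts were 3 and 6, and without MM5, MM8 and MM9 the 3 counts were 1, 5 and 1. Of 15 neuronal markers 0 passed edgeR, 1 was lower at an unadjusted p under 0.05, and DESeq2 called 1 as fallen. Of 7 repair Schwann cell markers tested 1, Ncam1, fell in edgeR, 2 were lower at an unadjusted p under 0.05, and DESeq2 called 1 as fallen. Ncam1 is also in the growth-cone list below. Of 10 myelinating Schwann cell markers 0 passed edgeR, 1 was higher at an unadjusted p under 0.05, and DESeq2 called 1 as risen. None of the markers of satellite glia (10), fibroblasts (8), endothelium (8), neutrophils (8) or muscle (8) passed edgeR. At an unadjusted p under 0.05, 1 endothelial marker was higher, and 4 neutrophil markers and 1 muscle marker were lower. The satellite glia and fibroblast lists held 0 such genes, and over all genes 13.9% were higher and 8.60% lower. DESeq2 called 2 neutrophil markers as fallen. The part of these cell types in the levels of Klf6 and Tubb6 was not tested, nor was that of the muscle RNA in SHAM8.

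Leaving out MM4 and MM8 turned the fold change of 7 of the 10 genes below 0, and Jun, Klf6 and Tubb6 stayed above 0. None of the 10 passed the edgeR test in that fit, 1 of them (Tubb6) having an unadjusted p under 0.05. With SHAM8 also left out, Atf3 was at 0.08 and Sprr1a at -0.35.

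**Figure D3:**
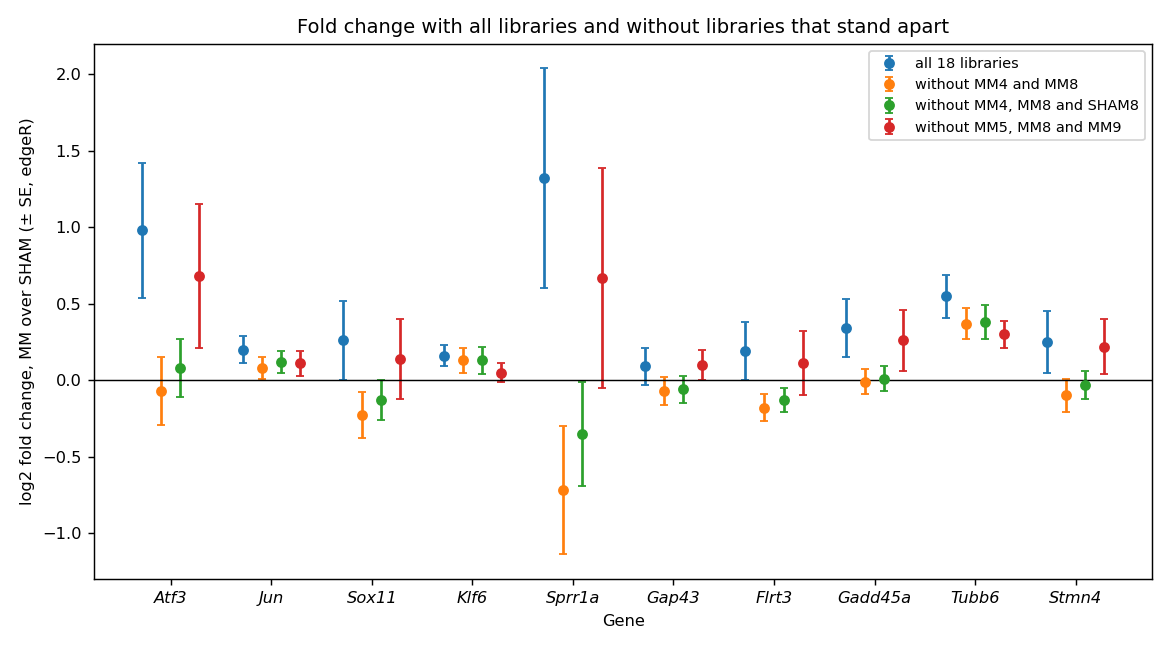
Log2 fold change of MM over SHAM with its SE for each of the 10 genes, with all 18 libraries, without MM4 and MM8, without MM4, MM8 and SHAM8, and without MM5, MM8 and MM9. Tubb6 moves from 0.55 to 0.37, 0.38 and 0.30, and Sprr1a from 1.32 to -0.72, -0.35 and 0.67.

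Atf3 was also set against each of the other 9 genes over the 16 libraries other than MM4 and MM8, as log2 CPM. Benjamini-Hochberg adjustment was over 9 relations, with 100000 permutations. MM4 and MM8 were left out after the values of these genes had been seen, and MM and SHAM libraries were shuffled together. The p-values take no account of either, so the relations are descriptions. Pearson's r was 0.79 for Sprr1a and 0.73 for Flrt3 (permutation test, adjusted p = 0.0131 for each), and 0.66 for Jun and for Gadd45a (permutation test, adjusted p = 0.0137 for each). Sox11 and Stmn4 had r = 0.49 (permutation test, adjusted p = 0.0825), and Gap43, Tubb6 and Klf6 0.24, 0.14 and 0.11. Spearman's rho was 0.65 for Sprr1a, 0.59 for Flrt3, 0.42 for Jun and 0.57 for Gadd45a, and no rho passed the adjustment (permutation test, lowest adjusted p = 0.0670). Without SHAM8 and MM7, the 2 libraries farthest from the median of Atf3, r was 0.24 for Sprr1a and 0.21 for Flrt3, so these relations rested on those libraries. It was 0.76 for Jun and 0.58 for Gadd45a.

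Per length, in mean TPM (a depth-scaled level that also divides by transcript length) over SHAM, Gap43 led with 219 ± 19.1, followed by Jun with 65.6 ± 4.92, Sprr1a with 41.8 ± 27.1, Gadd45a with 35.0 ± 2.31, Klf6 with 34.5 ± 3.18, Stmn4 with 31.1 ± 4.91 and Tubb6 with 26.8 ± 2.68. Atf3 with 14.9 ± 4.09, Flrt3 with 11.0 ± 0.953 and Sox11 with 1.71 ± 0.375 were lowest (SD, n = 9). Neighbours from Jun to Tubb6 overlapped within 1 SD, as did Atf3 and Flrt3, whereas Gap43 and Sox11 stood clear. In MM the mean of Sprr1a was 102 TPM and that of Jun 72.3 TPM.

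Close relatives of the 10 genes were counted in the same fit, and counts at an unadjusted p are to be read against the 13.9% of all genes that were higher and the 8.60% that were lower. Of 20 relatives tested 0 passed the edgeR test, 4 were higher and 2 lower at an unadjusted p under 0.05, DESeq2 called 2 as risen, and the median log2 fold change was 0.00. MM4 and MM8 were the 2 highest libraries for 1 of the 20, Tubb2b (1.03% over all genes tested). The relatives with the highest mean TPM were Atf2, Jund, Sox4, Klf7, Sprr1b, Flrt2, Gadd45g, Tubb3 and Stmn2. Tubb3, the neuronal beta-tubulin, stood at 2270 TPM and Stmn2, the neuronal stathmin, at 1409 TPM, whereas Sprr1b was at 0.0164 TPM. Junb, another AP-1 subunit, was 101 CPM in MM9, 76.9 CPM in MM8 and 70.0 CPM in MM5 but 26.1 CPM in MM4, where SHAM reached 31.6 CPM. Its log2 fold change was 1.02 ± 0.30 with an edgeR adjusted p of 0.0708.

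So were the genes of the signalling that acts on Jun and Atf3. Of 12 genes of the DLK and JNK pathway 0 passed edgeR, 4 were lower at an unadjusted p under 0.05 (8.60% over all genes), and DESeq2 called 1 as fallen. Their median log2 fold change was -0.14, and that of the 15 neuronal markers was -0.15. By library, the median log2 difference was -0.68 in MM5 and -0.43 in MM9 for the pathway and -0.80 and -0.39 for the neuronal markers, whose part in the pathway values was not tested. Map3k12, which encodes DLK, averaged 83.7 ± 11.2 CPM over MM and 93.9 ± 4.80 CPM over SHAM (edgeR adjusted p = 0.177). Of 11 genes of gp130 and STAT3 signalling 0 passed edgeR, 2 were higher at an unadjusted p under 0.05 and DESeq2 called 2 as risen. Of 21 regeneration-associated transcription factors, 6 of them already counted above (Atf2, Junb, Jund, Stat3, Sox4 and Klf7), 0 passed edgeR. At an unadjusted p under 0.05, 7 were higher and 1 lower (13.9% and 8.60% over all genes), and DESeq2 called 5 as risen. In this list MM4 and MM8 were the 2 highest for Stat3 and Smad1 (1.03% over all genes tested). Stat3 had 398 CPM in MM4 and 383 CPM in MM8 against 327 to 364 CPM in SHAM.

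Of 22 growth-cone genes, 6 of them tubulins and stathmins counted among the relatives, 0 rose and 1, Ncam1, fell, from 116 ± 4.71 CPM in SHAM to 99.5 ± 11.4 CPM in MM (log2 fold change -0.22 ± 0.06, edgeR adjusted p = 0.0466). Ncam1 encodes a cell adhesion molecule of neurons and glia. It was not lowest in the mice with high Atf3: MM4 had 113 CPM and MM8 97.4 CPM, while MM5 had 83.2 CPM. The call was lost without MM4 and MM8 (adjusted p = 0.064) and in 13 of 18 fits that left out 1 library, those without MM5 to MM9 or a SHAM library other than SHAM6.

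Other genes known to be induced by axon injury formed a further list. Of 20 tested 1 rose and 0 fell, against the 2.75% and 0.241% over all genes, and their median log2 fold change was 0.38. At an unadjusted edgeR p under 0.05, 7 were higher and 0 lower (13.9% and 8.60% over all genes), and DESeq2 called 3 as risen. MM4 and MM8 were the 2 highest libraries for 11 of the 20, and for 1.03% of all genes tested. These 2 libraries were singled out from injury genes, and the list was chosen with earlier results known, so the count is a description. Galanin (Gal), a neuropeptide, was 44.0 CPM in MM4 and 69.0 CPM in MM8 against 6.61 to 20.3 CPM elsewhere, and SHAM8, at 10.8 CPM, was not high. The orphan receptor gene Gpr151 was 12.0 and 9.74 CPM against at most 3.02 CPM elsewhere. The endopeptidase gene Ecel1 was 14.7 and 26.1 CPM against a SHAM median of 3.45 CPM, with 9.65 CPM in SHAM8. None of these 3 passed the edgeR test (adjusted p of 0.219, 0.141 and 0.466). The gene that rose, the protease inhibitor gene Timp1 (log2 fold change 2.64 ± 0.59, edgeR adjusted p = 0.0267), had another order. Timp1 was 40.0 CPM in MM5 and 24.0 CPM in MM9 but 2.24 CPM in MM4, inside the SHAM range of 1.14 to 4.12 CPM. MM7, the lowest for Sprr1a, had 13.6 CPM of Timp1, above every SHAM mouse. The call of Timp1 was lost in 10 of 18 fits that left out 1 library (MM5, MM8, MM9 or a SHAM library other than SHAM4 and SHAM6).

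**Figure D4:**
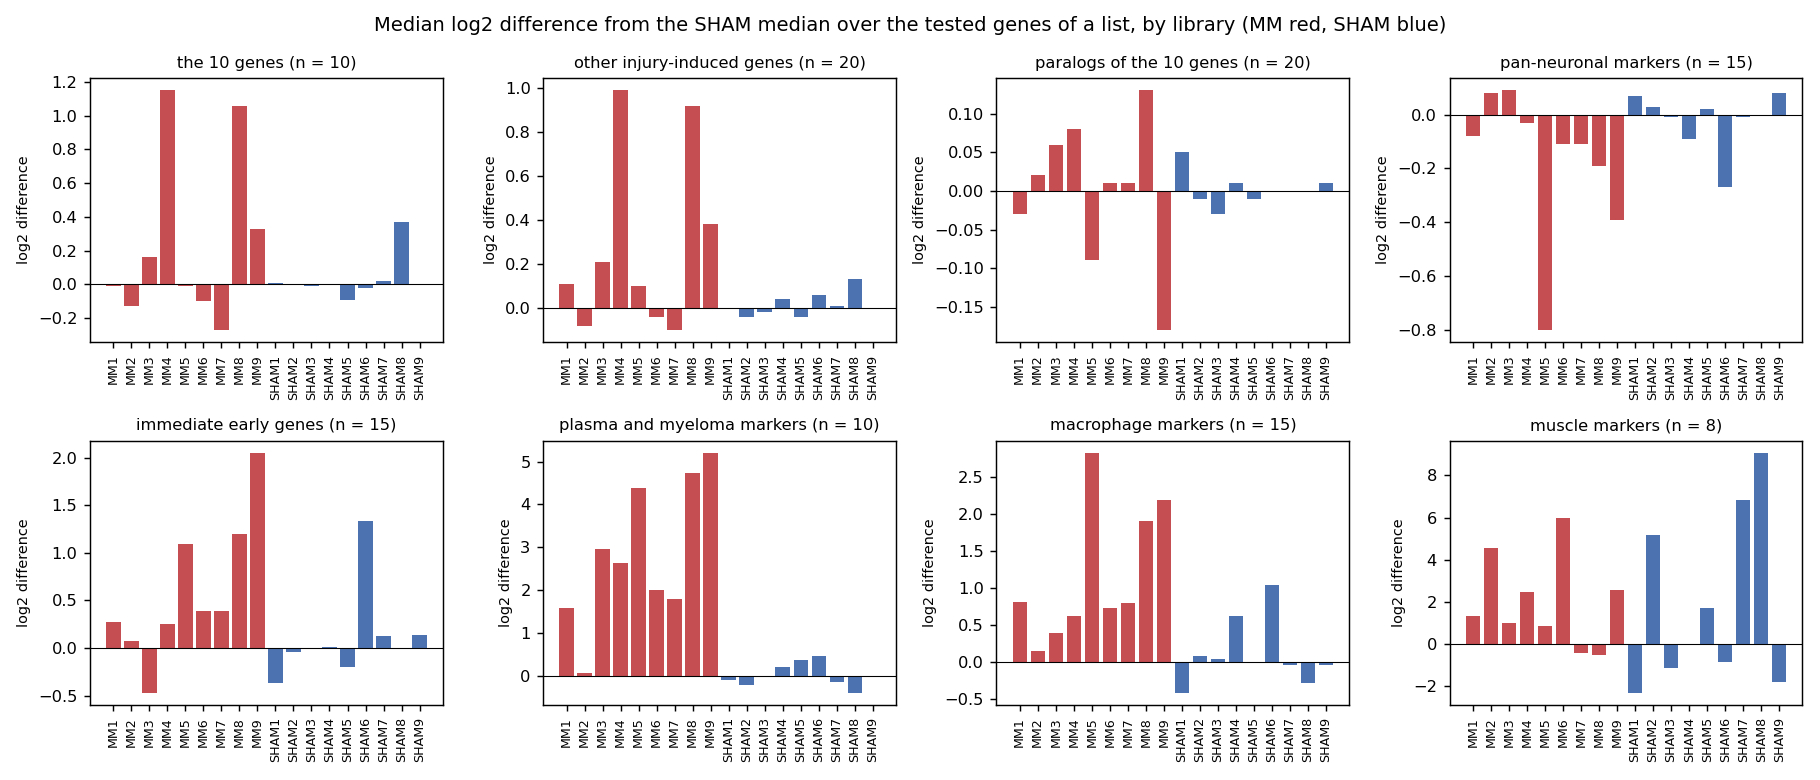
Median log2 difference from the SHAM median over the tested genes of 8 lists (bars, log2 difference on the vertical axis, each panel with its own scale), by library. MM4 and MM8 stand out in the 10 genes and the other injury-induced genes, and MM5, MM8 and MM9 in the macrophage and plasma-cell lists, and SHAM8 in the muscle list.

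The stress programmes were high in MM8 but not in MM4. Over the immediate early genes, which respond to many stimuli within minutes to hours, the median log2 difference from the SHAM median was 2.05 in MM9, 1.34 in SHAM6, 1.20 in MM8 and 1.09 in MM5, but 0.25 in MM4. Over p53 targets it was 0.74 in MM5, 0.49 in MM9 and 0.39 in MM8, and 0.04 in MM4. Over integrated stress response genes MM8 was the highest of all libraries with 0.83, followed by MM5 with 0.78 and MM9 with 0.52, and MM4 had 0.13. Of 15 immediate early genes, 3 of them already counted above (Fos, Egr1 and Junb), 1 rose. It was Btg2 (log2 fold change 1.69 ± 0.43, edgeR adjusted p = 0.0427). At an unadjusted edgeR p under 0.05, 9 of the 15 were higher and 3 lower (13.9% and 8.60% over all genes), and DESeq2 called 6 as risen. The 3 lower were Arc and the heat-shock genes Hspa1a and Hspa1b, which this list also holds. Hspa1a and Hspa1b had 108 and 149 CPM in SHAM6, against SHAM medians of 12.4 and 19.7 CPM. Of 15 genes in the p53 list 2 rose, Btg2 and Trp53inp1 (1.12 ± 0.27, edgeR adjusted p = 0.0354), and 5 were higher and 0 lower at the unadjusted threshold. This list also holds Trp53, the gene of p53 itself, which was 1 of the 5. Btg2, an antiproliferative gene, was 87.5 CPM in MM9 and 15.7 CPM in MM4. Of 13 integrated stress response genes, 3 of them already counted in earlier lists (Atf4, Ddit3 and Sesn2), 0 passed edgeR. There, 6 were higher and 1 lower at an unadjusted p under 0.05 (13.9% and 8.60% over all genes), and DESeq2 called 1 as risen. For 0 genes of these lists were MM4 and MM8 the 2 highest. Both calls were lost without MM4 and MM8 (adjusted p = 0.0868 for each), and in 11 of 18 fits that left out 1 library, those without MM5, MM8, MM9 or a SHAM library other than SHAM6.

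The genes most alike to each of the 10 were ranked by Pearson's r of log2 CPM over the 18 libraries, given without a p because MM4 and MM8 weigh on most of them. Sprr1a ran closest to Ecel1 (r = 0.98), Cckbr (0.97) and Npy (0.95), and over the 16 libraries without MM4 and MM8 these were 0.96, 0.95 and 0.90. Those 16 still held MM7 and SHAM8, which were low and high in all of these genes. Spearman's rho with Sprr1a over the 18 libraries was 0.91 for Ecel1, 0.79 for Cckbr and 0.77 for Npy. Atf3 ran closest to Gpr151 (0.96), Smim3 (0.93) and Cckbr (0.90), and without MM4 and MM8 these were 0.80, 0.66 and 0.86. Gpr151 was also the closest to Gadd45a (0.96) and Flrt3 (0.90), and Tmtc4 the closest to Sox11 (0.93) and Gap43 (0.91). Without MM4 and MM8, r was 0.73 for Gadd45a, 0.49 for Flrt3 and 0.79 for Sox11, and for Gap43 it was 0.82 without MM4 and MM5, its 2 farthest libraries. Stmn4 ran closest to Npy (0.92) and Jun to Ell2 (0.88), with 0.84 and 0.73 when MM4 and MM8 were left out. Klf6 and Tubb6 had other neighbours: Klf6 ran closest to Csf1r (0.95), the macrophage growth factor receptor, and Tubb6 to Sbno2 (0.91), Slfn9 (0.90) and Bcl3 (0.90). Without MM5 and MM8, the 2 farthest libraries for both, r was 0.90 for Klf6 and Csf1r and 0.83, 0.84 and 0.81 for Tubb6.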

How the data were processed

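Sequencing was on the DNBSEQ platform, per the labels' protocols. Per the submitters' processing notes, Salmon 1.5.2, DESeq2 and GRCm39 were used, and settings are not given in the sources used here. The authors deposited Salmon estimated counts, TPM values and effective lengths (other) per transcript, and a table of normalized expression values (treated as signal, used as an alternative on the log2(value + 1) scale).

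Estimated counts were summed per gene with GENCODE M21 (GRCm38, so no gene coordinates are printed), rounded, filtered with edgeR's filterByExpr, TMM-normalised and fitted by group with edgeR 4.0.16 (robust quasi-likelihood, R 4.3.3). SE is the absolute log2 fold change over the square root of F. CPM are TMM-scaled, and log2 CPM carry a prior count of 2. P-values were adjusted over 15774 genes. On counts simulated over 15578 genes, the fit recovered 80% of 1.5-fold and 91% of 2-fold changes. The simulation gave both groups the spread of the SHAM libraries, and the changed genes had at least 1 CPM. Its recovery is too high for genes that spread more widely in MM. The SD was 104% of the mean in MM and 33.9% in SHAM for Atf3, and 30.8% and 7.94% for Tubb6. Each mouse is 1 replicate, and no batch is named in the labels.

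The 10 genes and all lists were chosen with earlier results of these data known. An item withheld from the text is not reported here and was left out of its list. Named are the 10 genes; from each list, up to 3 called genes per direction by p and the 2 highest by mean CPM; the highest relative of each by mean TPM; the 3 genes most alike to each; and Ighg2b. Not every gene this rule allows is described. Other genes named, among them Gal, Ecel1, Gpr151, Junb, Map3k12, Stat3 and Smad1, were chosen after their values were seen. Promoters are from RefSeq (GRCm38.p6). Alternatives were DESeq2 1.42.0, RLE size factors, no filter, a length offset, limma 3.58.1 on the deposited values, a replicate block, and libraries left out.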

Additional observations from a re-analysis of the deposited data

Results flagged for a closer look

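In each group the highest and the lowest library of each of the 10 genes were compared with the others by Dixon's gap ratio at the 95% critical value for 9 libraries. Of 20 groups examined 3 were marked. Chance marks about 1 in 20 where groups are independent. The 10 genes were measured in the same mice, so the 3 marks cannot be set against that share. All 3 marks were SHAM8 among the SHAM mice. Atf3 was 27.3 CPM there against 11.9 to 19.2 CPM in the other SHAM mice, Sprr1a 37.5 CPM against 7.17 to 18.1 CPM, and Stmn4 17.3 CPM against 10.6 to 12.7 CPM. SHAM8 also held 19691 CPM of muscle marker transcripts, the most of all libraries, and 2690 CPM of myelin markers, the least, and the part of these in the 3 values was not tested. Neither MM4 nor MM8 was marked for any of the 10 genes. The ratio takes the gap to the next library, so 2 high libraries in a group mask each other. Atf3, for example, was 83.0 CPM in MM4 and 84.7 CPM in MM8. The missing mark therefore does not show that these 2 libraries lay among the other MM mice.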

How the results depend on the processing

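The fits without MM4 and MM8 and without MM4, MM8 and SHAM8 were added after seeing the data, and the cause of the changes below was not tested. Of the 10 genes, 0 rose with no filter, with the authors' values in limma, with the replicate block, without MM5, MM8 and MM9, without MM4 and MM8, and without MM4, MM8 and SHAM8. Tubb6 had an unadjusted p under 0.05 in each. Its log2 fold change and adjusted p in these 6 fits were 0.54 and 0.0542, 0.50 and 0.0662, 0.50 and 0.182, 0.30 and 0.228, 0.37 and 0.0885, and 0.38 and 0.134. DESeq2, RLE size factors and the length offset kept its call. In edgeR, DESeq2 and limma 0 of the 10 fell in any of these fits, and 0 were lower at an unadjusted p under 0.05. Without MM4 and MM8, log2 fold changes turned to -0.07 for Atf3, -0.23 for Sox11, -0.72 for Sprr1a, -0.07 for Gap43, -0.18 for Flrt3, -0.01 for Gadd45a and -0.10 for Stmn4. With SHAM8 left out as well they were -0.13 for Sox11, -0.35 for Sprr1a, -0.06 for Gap43, -0.13 for Flrt3 and -0.03 for Stmn4.

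Over all genes, 945 rose and 256 fell with DESeq2, 193 rose with the authors' values, and 20 fell with no filter and 67 with the length offset. Without MM5, MM8 and MM9 these were 53 and 7, without MM4 and MM8 126 and 12, and without MM4, MM8 and SHAM8 0 and 0 (1826 and 829 at an unadjusted p under 0.05 in edgeR). MM and SHAM share replicate numbers, but the labels name no pairing of the mice. Correlations of same-numbered deviations ran from -0.32 to 0.26, 2 of 9 over 0.1, and 2 of 9 MM libraries correlated best with their own number. These values do not settle whether mice were handled in pairs. With the replicate block 7 genes rose and 1 fell.

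With DESeq2, 2 relatives, 2 gp130 and STAT3 genes, 5 regeneration factors, 1 growth-cone gene, 3 injury-induced, 6 immediate early and 1 integrated stress gene rose, and 1 DLK and JNK gene fell. With the replicate block, and without MM5, MM8 and MM9, 0 injury-induced, 0 immediate early and 0 p53 genes rose and 0 growth-cone genes fell. Without MM4 and MM8 the last 3 of these were also 0, and with SHAM8 left out all 4 were. Leaving out each library in turn, 0 to 1 of the 10 rose and 0 to 0 fell, and 75 (without MM5) to 891 (without MM2) of all genes rose and 9 to 139 (without SHAM6) fell. The log2 fold change ran from 0.60 to 1.13 for Atf3, 0.12 to 0.23 for Jun, 0.06 to 0.35 for Sox11, 0.12 to 0.20 for Klf6, 0.45 to 1.69 for Sprr1a, 0.01 to 0.15 for Gap43, 0.02 to 0.26 for Flrt3, 0.15 to 0.40 for Gadd45a, 0.43 to 0.60 for Tubb6 and 0.10 to 0.32 for Stmn4. Genes with few reads, such as Npy and Cckbr, are limited by depth.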

Other observations

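Genes were also ranked by how far the lower of MM4 and MM8 lay above the highest of the other 16 libraries, on the log2 scale, among genes with a mean of at least 1 CPM. The gap was positive for 145 genes, 8 of them among the 10, and 0 of the 145 had an edgeR adjusted p under 0.05. The widest gaps were those of Gpr151 (1.66), Atf3 (1.60), Sprr1a (1.24) and Gal (1.11). Further down the ranking, among the 10 and genes of the injury list, stood genes outside every list. Sez6l, a neuronal membrane protein gene, was 44.0 CPM in MM4 and 47.9 CPM in MM8 against at most 26.1 CPM elsewhere. Fst, which encodes the activin antagonist follistatin, was 8.34 and 7.15 CPM against at most 4.30 CPM. Serpinb1a, a protease inhibitor gene, was 154 and 112 CPM against at most 78.0 CPM, and Npy1r, a receptor of neuropeptide Y, 47.9 and 38.0 CPM against at most 29.3 CPM. These genes were chosen by the ranking after MM4 and MM8 had been seen to stand apart, so the values are descriptions of 2 mice.

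MM7 was the lowest of all 18 libraries for several of the same genes. Sprr1a had 25 reads there (1.20 CPM, against 6.57 to 153 CPM elsewhere), Ecel1 10 reads (0.479 CPM against 2.02 to 26.1 CPM), Npy 7 reads (0.335 CPM against 1.12 to 20.2 CPM) and Cckbr 5 reads (0.239 CPM against 1.60 to 14.2 CPM). Its neuronal markers summed to 20372 CPM, within the range of SHAM. The genes with few reads carry large counting errors.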
